A study of Tribolium castaneum with 9 samples.

Results

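The 4 genes described here are the antioxidant enzymes of a deposited table of 5467 genes of the red flour beetle, Tribolium castaneum, a pest of stored grain. They are every gene whose deposited description contains peroxiredoxin, catalase, superoxide dismutase or methionine sulfoxide reductase. Among them, 1 gene is described as catalase-like (LOC655157, symbol Cat in RefSeq), 2 as peroxiredoxin-6 (LOC656825 and LOC659242, the latter Prx6a in RefSeq), 1 as a peptide methionine sulfoxide reductase (LOC655619, MsrA in RefSeq) and 0 as a superoxide dismutase. The rule kept at most 10 genes, a limit that was not reached. Every gene of the authors' deposited table had a log2 fold change of 1 or more there, up or down, in at least 1 of the 3 comparisons below. The 4 enzymes were thus chosen on the same libraries that are described here, and genes with smaller differences are not analysed here. For this reason fold changes, overlaps and counts are given as a description, with no p-value for any gene.

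RNA was sequenced from adults of a phenotype labelled Susceptible, in 3 groups of 3 libraries. The control group was the whole body of untreated beetles. The other groups were Malpighian tubules, the excretory organ, and fat body, the organ of storage and intermediary metabolism, each from beetles treated with carbonyl sulfide (COS), a fumigant gas. Neither dose nor exposure time is given in the sources used here, and no label says whether the libraries of a group came from separate beetles. Against the control, the tissue and the treatment changed together and cannot be told apart, and the comparison of fat body with tubules is between treated organs, with no untreated sample of either organ in these labels. The titles of the fat body libraries carry a number that those of the tubule libraries lack, and its meaning is not given. Whether both organs came from beetles treated alike is therefore not known, and a difference in treatment cannot be told apart from one of organ.

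Hydrogen peroxide is made by many oxidases and by superoxide dismutases, and cells remove it with haem and thiol enzymes. Catalase, a haem enzyme of the peroxisome, splits hydrogen peroxide into water and oxygen without any reductant. Peroxiredoxins reduce peroxides with a reactive cysteine. In mammals, peroxiredoxin-6 has a single such cysteine, which is restored with glutathione, and it also reduces peroxides of phospholipids. Methionine sulfoxide reductase A acts on the damage, not on the oxidant: it turns oxidised methionine in proteins back into methionine, with thioredoxin as reductant. COS is known to be hydrolysed by carbonic anhydrase to hydrogen sulfide, an inhibitor of cytochrome c oxidase.

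The deposited annotation describes the 4 proteins as different in size and class. Catalase has 501 residues, and its deposited annotation lists heme binding and the peroxisome. LOC656825 has 223 residues and LOC659242 has 219, and the deposited annotation places both in the 1-Cys peroxiredoxin family and in the cytosol. Their deposited orthology terms differ: LOC659242 carries the term for peroxiredoxin 6 and LOC656825 the one for peroxidase. MsrA has 218 residues. Because the 2 peroxiredoxin-6 genes may be similar in sequence, and the way in which shared reads were counted is not given in the sources used here, the division of reads between them is uncertain.

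Library totals ran from 13435869 to 19866421 reads, of which the listed genes took 45.7 to 67.3%. Levels are CPM (reads of a gene over the reads of the library, in the usual CPM unit), with TMM factors that rest on the genes of the table. The summed levels of the marker genes of each organ were highest where the labels place them, but single markers went the other way. The summed level of the 8 fat body markers (vitellogenins, hexamerins and apolipophorins) was 15452 to 24673 CPM in fat body, 3956 to 5600 CPM in whole body and 1002 to 1222 CPM in tubules. Of these 8, 5 were called higher and 3 lower in fat body over control (the calls are defined below). The lowest fold change was that of HEX1B, a hexamerin, at 42.04 CPM in fat body and 231 CPM in whole body. The counts of all marker lists stand beside the shares of all tested genes. Of these, 32.6% were called higher and 30.2% lower in tubules over control. In fat body over control 32.2% were called higher and 36.9% lower. In fat body over tubules 38.8% were called higher and 2198 of 5358 genes lower. The 23 tubule markers, among them the subunits of the proton pump, summed to 6105 to 8163 CPM in tubules, 1956 to 2196 CPM in whole body and 2109 to 2296 CPM in fat body. Of these 23, 15 were called higher and 2 lower in tubules over control, among the latter the proton pump subunit LOC658882 at 7.74 CPM in tubules, 21.9 CPM in whole body and 45.7 CPM in fat body. Muscle markers (25 genes) were also highest in fat body, at 33027 to 40741 CPM against 15203 to 15365 CPM in whole body and 2069 to 2667 CPM in tubules. Among them 16 were called higher and 5 lower in fat body over control, 18 higher and 4 lower in fat body over tubules, and 2 higher and 20 lower in tubules over control. The 43 markers of the digestive gut summed to 2409, 5499 and 4206 CPM in tubule libraries 1 to 3. In whole body they summed to 1589 to 2286 CPM and in fat body to 498 to 722 CPM, where 3 of them were at 0. Of the 41 tested, 12 were called higher and 10 lower in tubules over control, or 7 and 11 with the authors' size factors. In fat body over control 6 were called higher and 25 lower. The 2 ovary and egg markers, the vitellogenin receptor (LOC657346) and bicaudal C (LOC663844), summed to 874, 287 and 1235 CPM in tubule libraries 1 to 3, 47.5 to 145 CPM in whole body and 8.44 to 73.4 CPM in fat body. Both were called higher in tubules over control, with a median log2 fold change of 3.23. The part of the muscle, gut and ovary markers in the levels of the enzymes and of the lists below was not tested, and in bulk RNA fewer cells of a type and less RNA per cell cannot be told apart.

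Catalase had its highest level in fat body. It was at 561, 453 and 488 CPM in the whole body libraries, at 474, 513 and 420 CPM in the tubule libraries and at 968, 850 and 982 CPM in the fat body libraries. Every fat body library was above every other library, while the whole body and tubule values overlapped. The means were 501 ± 55.3, 469 ± 46.8 and 933 ± 72.6 CPM (SD, n = 3 each). The log2 fold change of fat body was 0.90 ± 0.14 (approximate SE) over control and 0.99 ± 0.14 over tubules, and that of tubules over control was −0.09 ± 0.14. The value for tubules over control depended on the scaling: with the authors' own size factors it was −0.58, and it then passed the threshold used below.

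The peroxiredoxin-6 gene LOC656825 was low in tubules. Its level was 125, 89.7 and 76.3 CPM in whole body, 13.3, 27.9 and 31.6 CPM in tubules and 71.8, 123 and 131 CPM in fat body. All tubule libraries were below all others, and the whole body and fat body values overlapped. The means were 96.9 ± 25.1, 24.3 ± 9.65 and 109 ± 32.1 CPM (SD, n = 3 each). The log2 fold change was −2.00 ± 0.37 for tubules over control, and that of fat body over tubules was 2.16 ± 0.37. For fat body over control it was 0.16 ± 0.35, a difference within the spread between libraries whose sign turned to −0.10 when library totals alone were used for scaling. Within their groups, whole body library 3 and fat body library 1 had the lowest levels of this gene. These libraries also had the highest summed levels of 19 testis and sperm markers in their groups. The sums were 3077 CPM against 1510 and 1584 CPM in the other whole body libraries. In fat body they were 1461 CPM against 451 and 727 CPM in the other libraries. The tubules did not share this order: the markers summed to 1386, 1452 and 995 CPM in libraries 1 to 3, and LOC656825 was lowest in library 1. Of the 19 markers, 6 were called higher and 2 lower in tubules over control. In fat body over control 1 was called higher and 8 lower. Without whole body library 3 and fat body library 1, the log2 fold change of LOC656825 was −2.15 in tubules over control. It was then 2.39 in fat body over tubules and 0.24 in fat body over control. Because they were the lowest of their groups for this gene, leaving them out raises those group means, and nothing is read from these changes. The part of the testis markers was not tested.

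The other peroxiredoxin-6 gene, LOC659242, was low in fat body instead. It stood at 36.2, 31.6 and 32.8 CPM in whole body, 42.4, 37.7 and 44.2 CPM in tubules and 13.7, 10.5 and 10.5 CPM in fat body. None of the 3 groups overlapped, although the whole body and tubule values were close. The means were 33.5 ± 2.38, 41.4 ± 3.38 and 11.6 ± 1.87 CPM (SD, n = 3 each), and the fat body values rest on 206, 184 and 156 reads. The log2 fold change of fat body was −1.53 ± 0.17 over control and −1.84 ± 0.17 over tubules. For tubules over control it was 0.31 ± 0.17, which turned to −0.19 with the authors' size factors.

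MsrA, the repair enzyme, was high in tubules and differed most among their libraries. It was at 27.5, 34.4 and 29.9 CPM in whole body, 69.1, 161 and 262 CPM in tubules and 38.6, 43.3 and 42.3 CPM in fat body. All tubule libraries lay above all others, and the fat body values lay above those of whole body by a narrow margin. The means were 30.6 ± 3.47, 164 ± 96.7 and 41.4 ± 2.51 CPM (SD, n = 3 each). In tubules the SD was 58.9% of the mean and the highest library was 3.80 times the lowest, beside ratios of 2.37 for LOC656825, 1.22 for catalase and 1.17 for LOC659242 in the same libraries. The log2 fold change was 2.42 ± 0.41 for tubules over control, and that of fat body was −1.99 ± 0.40 over tubules and 0.44 ± 0.39 over control. The fit shares its estimate of spread among all 9 libraries, so the wide tubule spread also enters the SE of fat body over control. Tubule library 1, the lowest for MsrA, was also the lowest of its group for LOC656825 and for the summed gut markers, at 2409 CPM. The same library was lowest for the summed tubule markers, at 6105 CPM against 8163 and 7050 CPM. The part of these markers in the spread was not tested.

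**Figure D1:**
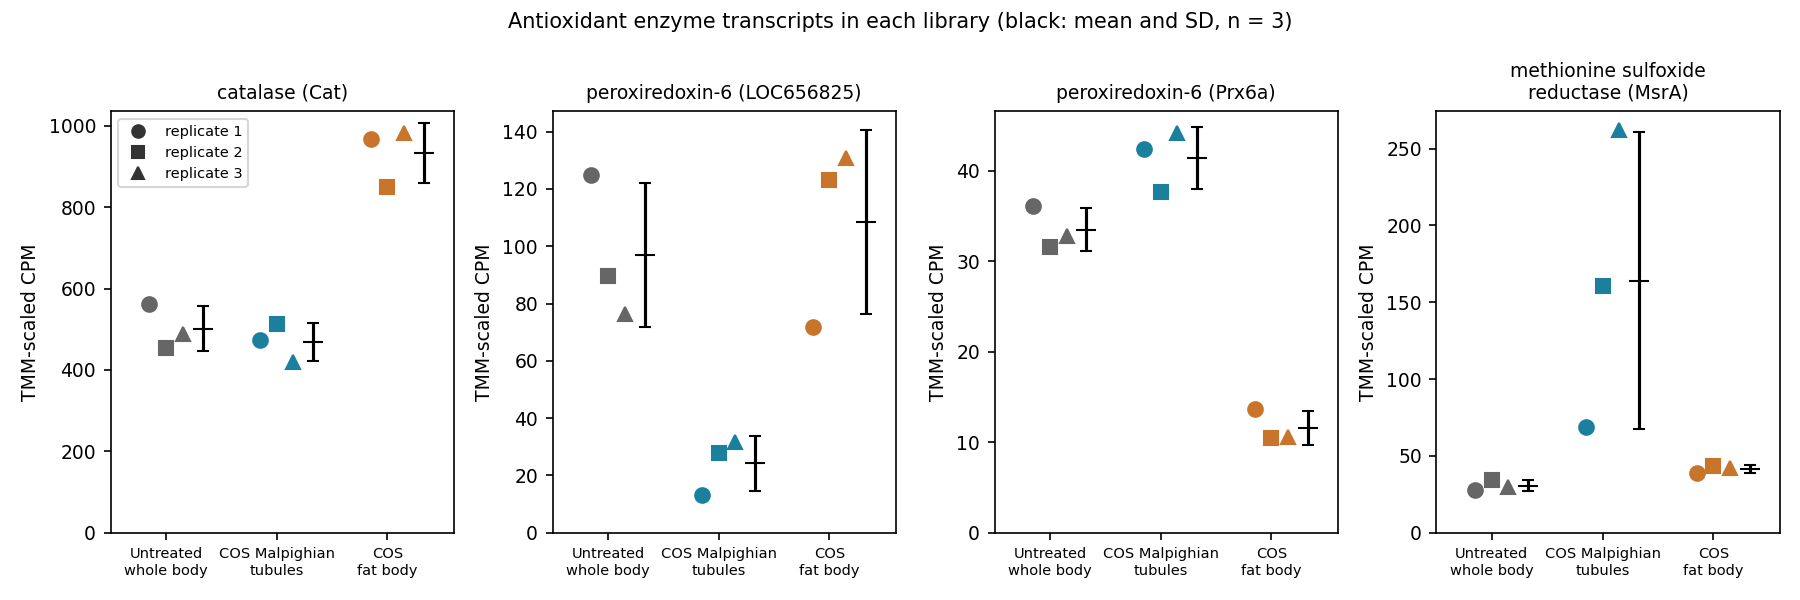
TMM-scaled CPM of the 4 enzymes in each of the 9 libraries, by group, on a linear axis from 0 that differs between panels; the black marks are the mean and SD of 3 libraries. Fat body is highest for catalase (850 to 982 CPM) and lowest for Prx6a (10.5 to 13.7 CPM), and the tubules are lowest for LOC656825 (13.3 to 31.6 CPM) and highest and most spread for MsrA (69.1 to 262 CPM).

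The 3 comparisons were fitted over the whole table with edgeR's quasi-likelihood test, and a gene was called at a Benjamini-Hochberg adjusted p below 0.05. For tubules over control, 1 enzyme was called higher (MsrA) and 1 lower (LOC656825), in a table where 62.8% of all tested genes were called, 32.6% higher and 30.2% lower. Tubule and control libraries were fully apart for 3 of the 4 enzymes, against 72.4% of all tested genes. For fat body over control, 1 was called higher (catalase) and 1 lower (LOC659242), against 69.1% of all tested genes called, 32.2% higher and 36.9% lower. Fat body and control libraries were fully apart for 3 of the 4 enzymes, against 78.0% of all tested genes. For fat body over tubules, 2 were called higher (catalase and LOC656825) and 2 lower (LOC659242 and MsrA), against 79.8% of all tested genes called, 38.8% higher and the others, 2198 of 5358 genes, lower. There the groups of all 4 enzymes were apart, against 80.3% of all tested genes. Since the table was chosen on these contrasts, nothing is read from the counts. The median log2 fold change of the 4 enzymes was 0.11, 0.30 and −0.42 in the 3 comparisons, beside −0.12, −0.22 and −0.24 over all genes tested. The 3 comparisons share libraries, so their values are not independent of each other.

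In the authors' deposited table the log2 fold changes of catalase, in the same order of comparisons, were −0.58, 1.06 and 1.64. For LOC656825 the authors' deposited table gives −2.50, 0.33 and 2.82, and for LOC659242 −0.19, −1.38 and −1.19. For MsrA the authors' deposited table gives 1.93, 0.60 and −1.33. The 2 sets of values differ by the scaling: with the authors' size factors the median of all genes moved by −0.49, 0.16 and 0.65 (log2) from its place under TMM scaling. The sign differed from that under TMM scaling for 1 value, that of LOC659242 in tubules over control.

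The 2 peroxiredoxin-6 genes differed in opposite directions between the 2 organs, and each was called lower than control in 1 organ only. This shows in their read ratio within each library, a quantity that no scaling changes. There were 3.45, 2.84 and 2.33 reads of LOC656825 per read of LOC659242 in whole body. The ratio was 0.315, 0.741 and 0.714 in tubules, and 5.23, 11.8 and 12.4 in fat body. Thus LOC656825 had the larger count in all whole body and fat body libraries and the smaller count in all tubule libraries. As a share of the reads of both genes, LOC656825 took 77.5, 74.0 and 69.96% in whole body, 23.9, 42.6 and 41.7% in tubules and 84.0, 92.2 and 92.6% in fat body. The widest 95% Wilson interval of these shares reached 3.21 percentage points from its centre, which covers counting error only.

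Together the 4 enzymes took 743 ± 103 CPM (of the unscaled library total) in whole body, 665 ± 76.8 in tubules and 1025 ± 35.8 in fat body (SD, n = 3 each). Catalase supplied most of these reads in every library, at 75.7 ± 1.84% in whole body, 68.0 ± 11.9% in tubules and 85.2 ± 3.05% in fat body. MsrA supplied 4.70 ± 0.99% in whole body and 3.80 ± 0.37% in fat body, but 11.5, 21.7 and 34.6% in the 3 tubule libraries. LOC656825 supplied 14.5 ± 2.24%, 3.39 ± 1.02% and 9.93 ± 2.93%, and LOC659242 5.08 ± 0.23%, 5.998 ± 1.002% and 1.06 ± 0.18%, in whole body, tubules and fat body.

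**Figure D2:**
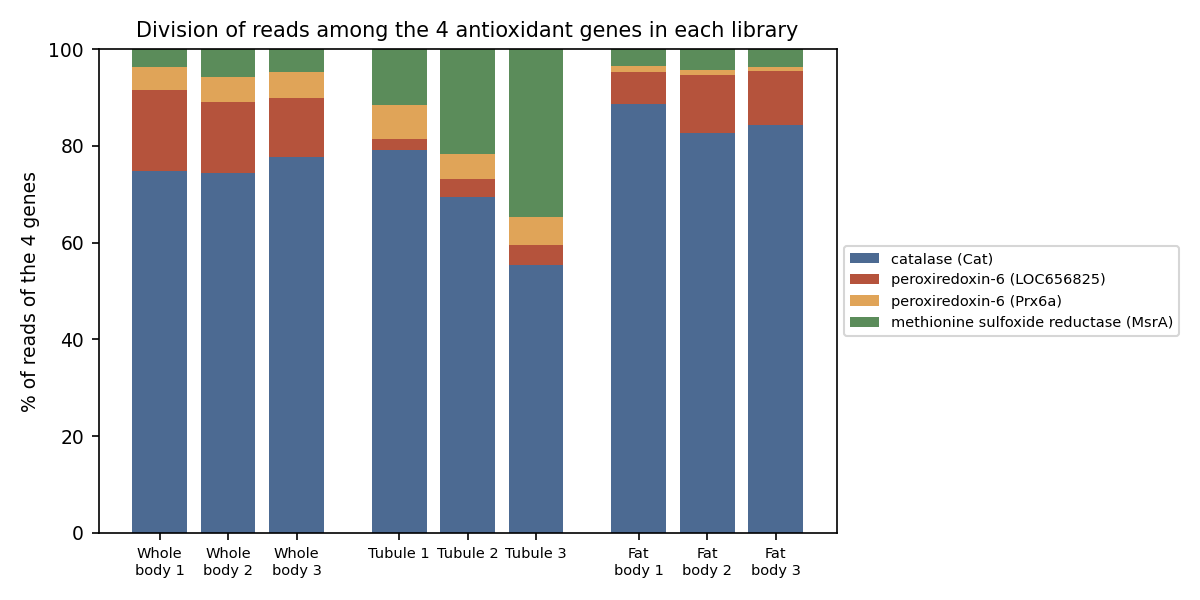
Share of the reads of the 4 enzymes taken by each enzyme (y axis, % of their summed reads) in each library, 1 bar per library. Catalase is the largest segment in all 9 bars, MsrA widens to 11.5 to 34.6% in tubules, and the 2 peroxiredoxin-6 segments change order between tubules and the other groups.

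Levels between genes were compared per kilobase of coding sequence, taken as 3 bases per residue of the protein. In whole body, catalase led at 333 ± 36.8 CPM per coding kilobase, followed by LOC656825 at 145 ± 37.4, while LOC659242 at 51.0 ± 3.62 and MsrA at 46.8 ± 5.30 overlapped. In tubules, catalase at 312 ± 31.1 and MsrA at 251 ± 148 overlapped, ahead of LOC659242 at 63.0 ± 5.15 and LOC656825 at 36.3 ± 14.4. In fat body the order was catalase at 621 ± 48.3, LOC656825 at 162 ± 48.0, MsrA at 63.3 ± 3.83 and LOC659242 at 17.6 ± 2.84, with no overlap between neighbours. The authors' FPKM values divide instead by a gene length that was close to the genomic span with introns. In those units LOC656825 (19.8 ± 5.66) and LOC659242 (15.7 ± 1.43) overlapped in whole body and MsrA (9.83 ± 1.18) lay below both. The order was otherwise the same in the 3 groups.

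The described genes with the most similar profiles were sought among 2174 genes, by the root mean square difference of mean-centred log2(CPM + 1) over the 9 libraries. For catalase they were the microphthalmia-associated transcription factor LOC659688 (difference 0.101), the extracellular serine/threonine protein LOC662687 (0.117) and alanine aminotransferase 2, LOC660331 (0.118), where the median of the genes ranked was 1.003. For LOC656825 they were the inducible metalloproteinase inhibitor LOC103315184 (0.224), the purine nucleoside phosphorylase LOC655432 (0.268) and the putative fatty acyl-CoA reductase LOC660187 (0.269), with a median of 1.26. For LOC659242 they were the ubiquitin carboxyl-terminal hydrolase LOC655264 (0.0930), the zinc finger protein LOC103313291 (0.131) and the splicing factor 3B subunit LOC658376 (0.143), with a median of 1.10.

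The genes closest to MsrA were 3 subunits of the translocon-associated protein complex, which sits beside the protein channel of the endoplasmic reticulum. They were the delta subunit LOC658171 (0.360), the gamma subunit LOC658394 (0.375) and the beta subunit LOC658071 (0.404), with a median of 1.26 over the genes ranked. Their distances were larger than those of the genes closest to the other enzymes. The delta subunit was at 143, 220 and 201 CPM in the tubule libraries, so it had the low value of library 1 but not the high value of library 3 seen for MsrA. Among the 4 enzymes themselves, the most similar profiles were those of catalase and LOC656825 (0.896) and the least similar those of MsrA and LOC656825 (1.95). The 2 peroxiredoxin-6 genes were 1.67 apart.

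**Figure D3:**
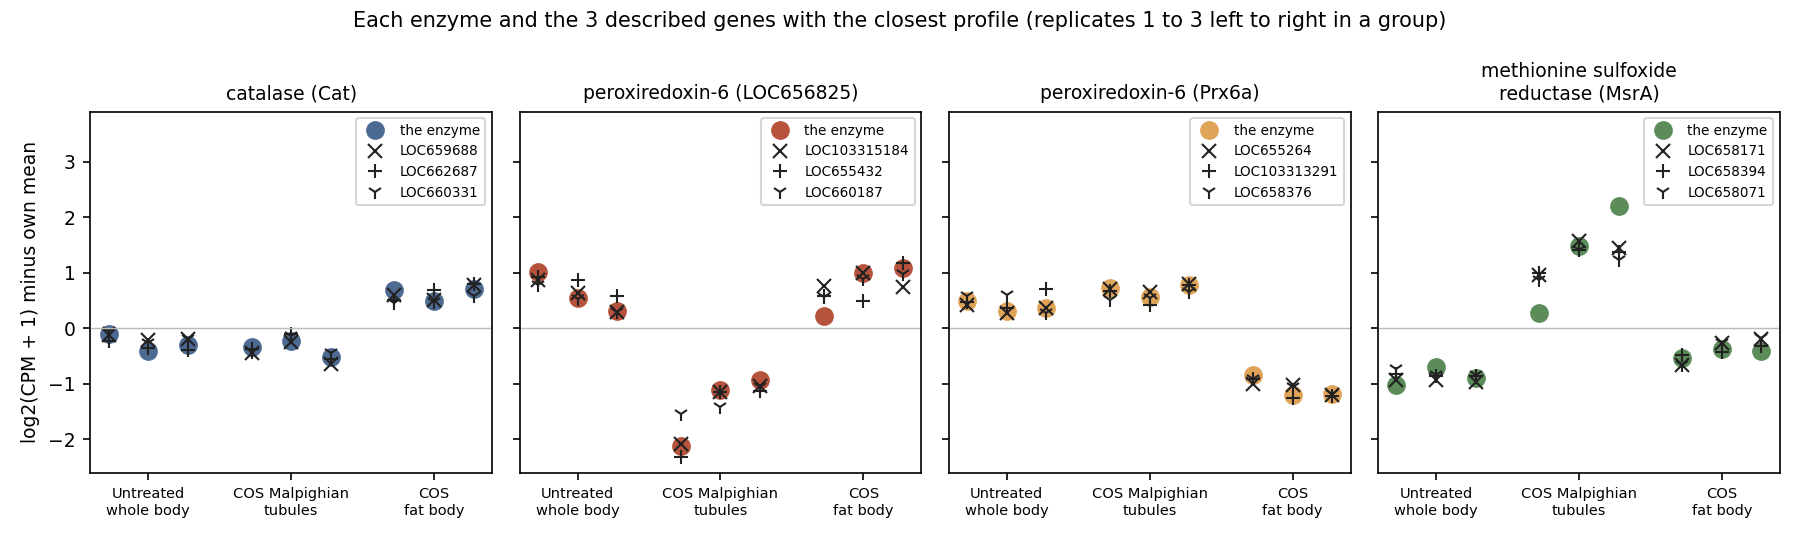
Profiles of each enzyme (filled circles) and the 3 described genes closest to it (crosses) over the 9 libraries, as log2(CPM + 1) minus the gene's own mean, with replicates 1 to 3 from left to right in each group. The closest genes follow catalase and Prx6a to within 0.143 (root mean square) and MsrA only to within 0.360 to 0.404.

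Other genes of peroxide and thiol metabolism in the same table were grouped in lists by their descriptions. Their counts stand beside the shares of all tested genes called: 62.8% in tubules over control (32.6% higher and 30.2% lower), 69.1% in fat body over control (32.2% higher and 36.9% lower) and 79.8% in fat body over tubules (38.8% higher). The lists come from the same table chosen on these contrasts, so nothing is read from the counts. Of 6 genes of hydrogen peroxide and thiol reduction, 3 were called higher and 1 lower in tubules over control, 2 higher and 4 lower in fat body over control, and 1 higher and 4 lower in fat body over tubules. Their median log2 fold changes were 0.38, −1.16 and −1.17, and with the authors' size factors the tubule median was −0.11 and 0 were called higher there. Sulfiredoxin-1 (LOC663169), which in yeast and mammals restores overoxidised peroxiredoxins of the other, 2-Cys class, was at 22.1 ± 4.30 CPM in whole body, 15.2 ± 2.96 in tubules and 6.05 ± 1.27 in fat body. Its log2 fold change was −1.87 ± 0.26 for fat body over control, and for tubules over control it was −0.54 ± 0.25. The latter was not called under TMM scaling, but was called lower with library totals alone, upper-quartile scaling or the authors' size factors (−1.04), and without whole body library 3 and fat body library 1. The phospholipid hydroperoxide glutathione peroxidases, which reduce lipid peroxides in the membrane, differed from each other. LOC658380 was at 33.03 ± 2.50, 63.0 ± 10.7 and 14.4 ± 3.15 CPM, highest in tubules, and LOC658456 at 123 ± 2.42, 200.2 ± 13.8 and 222 ± 8.58 CPM, lowest in whole body. In this list, selenoprotein S (LOC103312330) is known for its role in the endoplasmic reticulum. It was at 69.4 ± 5.62, 48.9 ± 5.12 and 24.3 ± 1.21 CPM. The glutaredoxin domain protein LOC658863 was at 14.1 ± 1.51, 16.05 ± 2.84 and 27.4 ± 2.41 CPM.

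Of 6 genes of glutathione synthesis and breakdown, 2 were called higher and 1 lower in tubules over control, 3 higher and 0 lower in fat body over control, and 3 higher and 3 lower in fat body over tubules. The medians were 0.29, 0.30 and −0.34, the first turning to −0.19 and the last to 0.32 with the authors' size factors, where 3 were called lower in tubules over control. Without whole body library 3 and fat body library 1, 3 were called higher and 0 lower there. The catalytic subunit of glutamate-cysteine ligase (LOC656567), the first step of glutathione synthesis, was at 86.7 ± 17.9 CPM in whole body, 244 ± 22.97 in tubules and 90.6 ± 11.2 in fat body, a log2 fold change of 1.49 ± 0.19 for tubules over control. Glutathione synthetase (LOC656361), the second step, went the other way, at 1.31 ± 0.02, 0.455 ± 0.27 and 10.4 ± 3.13 CPM. Its levels in whole body and tubules were low. Its call as lower in tubules over control was lost without whole body library 3 and fat body library 1. Gamma-glutamylcyclotransferase (LOC657379), which acts in glutathione turnover, was at 0.978 ± 0.31, 5.56 ± 0.58 and 1.01 ± 0.24 CPM, and gamma-glutamyltransferase 7 (LOC656159) at 9.86 ± 1.21, 8.53 ± 1.07 and 14.4 ± 1.48 CPM.

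Glutathione S-transferases, which join glutathione to reactive compounds, numbered 11. In tubules over control 3 were called higher and 5 lower, in fat body over control 5 higher and 0 lower, and in fat body over tubules 6 higher and 1 lower, with medians of −0.29, 0.70 and 0.56. Without whole body library 3 and fat body library 1, 3 were called higher in fat body over control. With the authors' size factors 2 were called higher and 7 lower in tubules over control (median −0.78). In fat body over tubules that scaling gave 9 higher and 1 lower (median 1.21). LOC657602 was at 13.2 ± 1.36 CPM in whole body, 264 ± 81.8 in tubules and 21.6 ± 8.83 in fat body, a log2 fold change of 4.32 ± 0.36 for tubules over control. LOC659302 was higher in both organs, at 161 ± 32.2, 549 ± 122 and 532 ± 151 CPM. Those called lower in tubules included LOC655751, at 8.57 ± 1.62, 2.003 ± 0.68 and 5.94 ± 1.70 CPM. Those called higher in fat body over tubules included LOC660161, at 2.67 ± 0.27, 0.916 ± 0.08 and 5.37 ± 0.68 CPM, and the microsomal LOC107397416, at 10.05 ± 1.86, 2.90 ± 1.14 and 21.95 ± 2.35 CPM.

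Enzymes that supply NADPH, the reductant behind the glutathione and thioredoxin systems, were called higher in fat body over tubules for 5 of 5 genes, where 38.8% of all tested genes were called higher. Their median log2 fold change was 1.78 beside −0.24 over all genes tested. In fat body over control 4 were called higher and 0 lower (median 1.33), and in tubules over control 0 higher and 4 lower (median −0.47). Mitochondrial isocitrate dehydrogenase (LOC659013) was at 543 ± 51.8, 285 ± 57.7 and 1430 ± 311 CPM in whole body, tubules and fat body. The cytosolic form (LOC661014) was at 26.6 ± 3.93, 9.44 ± 2.36 and 91.8 ± 12.96 CPM. Dehydrogenase of 6-phosphogluconate (LOC660752), in the pentose phosphate pathway, was at 142 ± 9.75, 104 ± 2.23 and 356 ± 35.5 CPM, and the malic enzyme LOC657686 at 369 ± 36.8, 387 ± 51.8 and 562 ± 66.8 CPM. Most muscle markers had the same direction (18 of 25 called higher in fat body over tubules, with 4 called lower), though not all. The lowest called was the troponin C LOC659263, at 0.952 CPM in tubules and 0.023 CPM in fat body, a low level in both. The part of the muscle markers in the levels of this group was not tested.

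The 5 peroxisomal enzymes, which share catalase's compartment, were likewise all called higher in fat body over tubules (median 1.004), where 38.8% of all tested genes and 18 of the 25 muscle markers (median 3.10) were called higher. The part of the muscle markers was not tested. In fat body over control 3 were called higher and 0 lower (median 0.80), and in tubules over control 1 higher and 3 lower (median −0.82). The latter counts were 0 higher and 4 lower with library totals alone, upper-quartile scaling or the authors' size factors, where acyl-CoA oxidase 1 was no longer called. The oxidase of acetylated polyamines (LOC662554) had the widest range, at 163 ± 24.9, 36.2 ± 9.22 and 385 ± 64.6 CPM. Acyl-CoA oxidase 1 (LOC662475), a source of hydrogen peroxide in the breakdown of fatty acids, was at 138 ± 8.19, 216 ± 44.2 and 294 ± 27.7 CPM. Acyl-CoA oxidase 3 (LOC658001) was at 54.5 ± 2.92, 30.3 ± 2.32 and 94.6 ± 13.9 CPM, and the multifunctional enzyme type 2 (LOC663655), a later step of the same breakdown, at 525 ± 32.5, 413 ± 66.5 and 629 ± 60.4 CPM.

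The list of haem peroxidases and oxidases that make peroxide held 12 genes, 2 of which are also in the peroxisomal list. Not all are such enzymes by description. The list holds dual oxidase maturation factor 1 (LOC659379), called higher in tubules over control, and the xanthine dehydrogenases LOC656456 and LOC656621, both called lower there. Of the 12, 5 were called higher and 5 lower in tubules over control, and 4 higher and 2 lower in fat body over control. In fat body over tubules 7 were called higher and 4 lower. The medians were 0.34, 0.24 and 0.63, the first turning to −0.15 with the authors' size factors and the second to −0.01 with library totals alone. Dual oxidase (LOC659451), a membrane enzyme that releases hydrogen peroxide, was at 10.3 ± 5.06, 59.2 ± 35.8 and 19.3 ± 0.41 CPM, with a wide spread in tubules. NADPH oxidase 5 (LOC661099) was at 9.71 ± 2.21, 39.4 ± 15.2 and 3.91 ± 1.05 CPM. The peroxidase LOC661785 was at 12.1 ± 0.63, 60.5 ± 4.47 and 3.29 ± 0.27 CPM, high in tubules and low in fat body. The peroxidase LOC658096 had the reverse order between the organs, at 329 ± 31.6, 339 ± 28.6 and 1209 ± 141 CPM. Xanthine dehydrogenase LOC656621, an enzyme of purine breakdown to uric acid, was at 196 ± 16.4, 24.5 ± 9.86 and 126 ± 99.2 CPM.

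Of 6 genes of metal handling, which store or carry metals such as iron, 1 was called higher and 2 lower in tubules over control, 2 higher and 1 lower in fat body over control, and 4 higher and 1 lower in fat body over tubules. The medians were −0.27, 0.16 and 0.83, the second turning to −0.10 with library totals alone and to −0.06 without whole body library 3 and fat body library 1. Ferritin heavy chain (LOC655492), the iron store, was at 1566 ± 240 CPM in whole body, 2036 ± 303 in tubules and 2829 ± 56.9 in fat body, and soma ferritin (LOC656261) at 32.8 ± 1.57, 7.85 ± 3.01 and 33.7 ± 2.17 CPM. The transferrin LOC659207 was highest in tubules (81.9 ± 17.9, 274 ± 86.7 and 37.8 ± 5.16 CPM) and the transferrin LOC655734 lowest there (142 ± 10.9, 30.5 ± 13.02 and 84.1 ± 72.1 CPM).

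The list of redox transcription control held 1 gene, Keap1 (LOC655908), which in mammals and flies restrains the factor that switches on antioxidant genes. It was at 45.7 ± 3.30 CPM in whole body, 117 ± 27.1 in tubules and 85.7 ± 3.32 in fat body. It was called higher in tubules over control (1.36 ± 0.19) and in fat body over control (0.91 ± 0.19). For fat body over tubules it was called lower (−0.45 ± 0.19), a call that was lost under all 4 other scalings and turned to 0.22 with the authors' size factors.

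**Figure D4:**
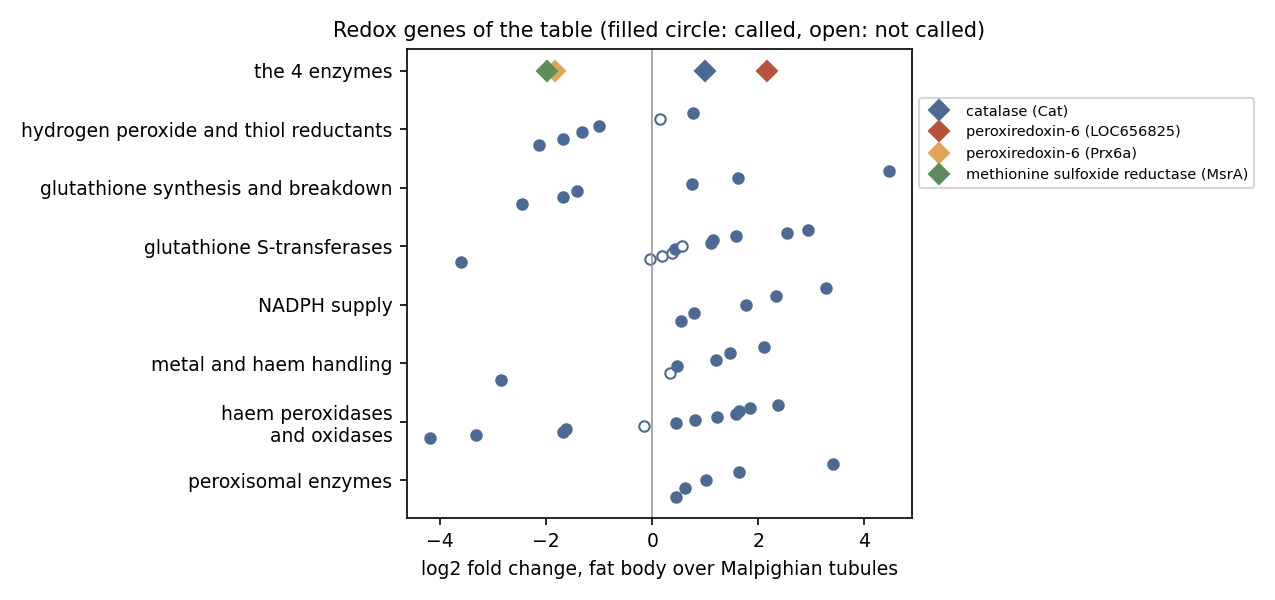
Log2 fold change of fat body over Malpighian tubules (x axis) for the 4 enzymes (diamonds) and for the genes of 7 redox lists (circles, filled where called). Of the enzymes, 2 lie above 0 and 2 below, and the NADPH supply and peroxisomal lists lie above 0 for 5 of 5 genes each under TMM scaling, in a table where 38.8% of all tested genes were called higher.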

How the data were processed

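Total RNA was isolated with TRIzol and cleared of DNA with DNase I, and the reads were mapped to the Tcas5.2 genome, per the labels' protocols. The submitters' processing notes name Trimmomatic 0.32; which aligner and counter were run is not given in the sources used here. Per the file headers, the authors deposited an expected count, a normalized signal, FPKM and TPM per gene and library, and log2 fold changes for 3 comparisons. All expected counts were whole numbers. Library totals were recovered from counts, FPKM and gene lengths, and the size factors the authors used from counts over normalized signal. The TPM values the authors deposited were not used. The authors' gene length had a median ratio of 0.997 to the RefSeq span of assembly icTriCast1.1 (4834 genes matched, 64.9% within 5%), so FPKM divides by a length with introns. That assembly was used for names and neighbours, while the protein lengths were those the authors deposited.

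Counts were fitted with edgeR 4.0.16 in R 4.3.3 (quasi-likelihood F test, filterByExpr, TMM factors on the listed genes, recovered totals as library sizes, all 9 libraries, no covariate), which tested 5358 genes, all 4 enzymes included, with Benjamini-Hochberg adjustment at 0.05. The script was tested on simulated data in which few genes differed between groups, as many up as down. Most genes of this table were called, so that test cannot judge the scaling used here. The SE is approximate: the size of the log2 fold change over the root of F. The alternatives were 4 scalings, DESeq2 1.42.0, no filter or 10 CPM in 3 libraries, each library left out, 2 libraries left out together, only the 6 libraries compared, and a replicate block. The members and lists were chosen with earlier results of these data known. Lists were matched as text on the descriptions, and 36 matches to genes of other function were removed after their descriptions were read. In each list the text names the gene with the highest FPKM and those with the extreme called fold changes, and NADPH oxidase 5 was added after its values were seen. The other per-sample value columns numbered 0. If replicates are technical, the errors measure only technical spread.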

Additional observations from a re-analysis of the deposited data

How the results depend on the processing

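Over 19 other settings, 228 member fold changes were recomputed: 224 kept their direction and their side of the threshold, 2 passed it newly and 2 turned direction. With the authors' size factors LOC659242 turned to −0.19 for tubules over control, and members called lower there numbered 2, since catalase (−0.58) then passed. With library totals alone LOC656825 turned to −0.10 for fat body over control. With only the 6 libraries compared, members called higher in fat body over control numbered 2, since MsrA (0.42) then passed. The cause was not tested. Library totals alone moved the median of all genes by −0.23, −0.26 and −0.02 (log2) in tubules over control, fat body over control and fat body over tubules, and upper-quartile scaling moved it by −0.22, −0.13 and 0.09. RLE scaling moved it by 0.04, 0.20 and 0.16. The share of tested genes called ran from 56.1 to 68.6%, 55.7 to 72.6% and 74.8 to 84.9%. Without tubule library 3 MsrA was at 1.91 and without tubule library 1 at 2.79 for tubules over control. Between libraries of the same replicate number, the deviations from the group means had correlations from −0.50 to 0.42. With 3 libraries per group these values cannot decide whether the numbers pair the libraries. With the replicate block the same member counts were called, and MsrA was at 2.29 for tubules over control. Depth limits LOC659242 most, with 156 reads in its lowest library.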

Other observations

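No gene of the table was described as a superoxide dismutase, but the deposited annotation gives the term superoxide dismutase activity to 2 vitellogenins, the yolk proteins made in the fat body. LOC660042 was at 540 ± 182 CPM in whole body, 405 ± 97.3 in tubules and 8602 ± 3085 in fat body, and LOC658755 at 344 ± 152, 139 ± 22.9 and 1737 ± 1010 (SD, n = 3 each). Both are also among the fat body markers.

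In the gene order of assembly icTriCast1.1, 3 of the 4 enzymes had a direct neighbour in the table. The neighbour of LOC656825, the V-ATPase subunit LOC656997, is also among the tubule markers. It was highest in tubules, where LOC656825 was lowest. Its level was 144 ± 10.3 CPM in whole body, 598 ± 69.1 in tubules and 135 ± 16.8 in fat body. The neighbour of MsrA, the phosphatase regulatory subunit LOC655699, was also highest in tubules, at 27.4 ± 2.89, 60.4 ± 11 and 15.3 ± 2.04 CPM. The neighbour of catalase, the mitochondrial protein LOC103314679, was lowest in fat body, where catalase was highest, at 74.6 ± 5.65, 64.0 ± 2.80 and 28.7 ± 4.59 CPM.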
